A study of Caenorhabditis elegans with 20 samples.

Results

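The dependence of the *daf-16* effect on the *daf-2* allele was examined in whole adult *Caenorhabditis elegans*, on all 20 arrays of the study, 5 for each of 4 genotypes. For each probe set (a group of probes that reads 1 transcript or several alike ones) the *daf-16* effect was the mean level with *daf-16* minus the mean level without it, on the log2 scale, taken separately in the e1370 and the m577 allele of *daf-2*. The allele interaction was the e1370 effect minus the m577 effect. A probe set was called where the Benjamini-Hochberg adjusted p from limma was under 0.05. Of 22548 probe sets tested, 40 were called in the interaction, which is 0.177%, and these 40 stand for 33 named genes. The 40 were sorted by the calls within each allele. In 10 probe sets the *daf-16* effect was called in both alleles with the same sign (graded), in 28 it was called in e1370 and not in m577 (e1370-only), and in 2 it was called in m577 and not in e1370 (m577-only). No probe set was called in both alleles with opposite signs.

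Every strain carried the *glp-4* allele bn2, temperature-sensitive, which leaves adults with few germ cells when raised warm. The strain with *daf-2*(e1370) is here called e1370, and the one with *daf-2*(m577) is called m577. The strains called e1370df50 and m577df50 carried the same *daf-2* alleles, e1370 and m577, together with the deletion *daf-16*(mgdf50). Eggs hatched at 20 °C, larvae grew at 15 °C and were moved to 25 °C near the L4 stage, and RNA was taken from sterile adults aged 1 day, with animals of 8 plates pooled in each biological replicate. The study held no animals with wild-type *daf-2*, so the interaction says nothing of the level either allele departs from. The strain background of each genotype and the genotype itself cannot be told apart.

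*daf-2* encodes the worm's insulin/IGF-1 receptor, and reduced function of this receptor lengthens life. *daf-16* encodes a FOXO transcription factor that signalling from the receptor keeps out of the nucleus, so that in *daf-2* mutants it enters the nucleus and its targets rise or fall. Both alleles are long-lived, and e1370 is known for a wider range of other defects than m577, such as reduced movement and brood size. Genes tied to *daf-16* in other work include stress and detoxification enzymes, lipid enzymes, and secreted intestinal proteins of the response to pathogens.

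Array medians lay between 6.41 and 6.57 on the log2 scale. Control probe sets for the Bacillus transcripts dap, lys and trp, which have no counterpart in the worm, numbered 15. They gave levels from 4.21 to 6.29 with a median of 4.57, and a mean of 6.29 or less is called the background range below. Of the 40 probe sets, 19 had at least 1 genotype mean in this range, so their fold differences have a floor that the array sets. Sperm genes, a sign of germ line and stage, had mean levels of 10.02 ± 0.87 in e1370, 10.13 ± 1.40 in e1370df50, 9.95 ± 1.22 in m577 and 11.05 ± 0.16 in m577df50 (SD, n = 5, over 39 genes), and their interaction was 1.00 ± 0.92 (SE). The 48 oocyte and germ cell genes averaged 9.30 ± 0.95 in e1370, 9.47 ± 1.07 in e1370df50, 8.91 ± 0.87 in m577 and 9.41 ± 0.30 in m577df50 (SD, n = 5). They had an interaction of 0.33 ± 0.76 (SE). On every array both means lay above the array median, so germ line transcripts were present in these adults. Control probe sets for the worm's own actin, Gapdh and ubiquitin transcripts read higher at the 3' end than at the 5' end. This difference, a sign of RNA quality and labelling, averaged 1.37, 1.47, 1.33 and 1.87 in e1370, e1370df50, m577 and m577df50. Its own interaction was 0.44 ± 0.17 (SE). Every m577df50 array (1.72 or more) was above every array of the other genotypes (1.68 or less). The *daf-16* effect in m577, and so the interaction and the classes, cannot be fully told apart from this difference. The 3 arrays with the lowest sperm level were replicate 3 of m577 (7.78), replicate 5 of e1370df50 (7.89) and replicate 4 of e1370 (8.59). In whole animals, fewer cells of a type and less RNA per cell cannot be told apart.

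The allele interaction asked whether removing *daf-16* changed a transcript by a different amount in e1370 than in m577. Taken alone, the *daf-16* effect was called for 987 probe sets in e1370 (541 higher and 446 lower with *daf-16*), which is 4.38%, and for 404 in m577 (270 higher and 134 lower), which is 1.79%. Both alleles called 275 probe sets, 27.9% of the e1370 calls and 68.1% of the m577 calls, and all 275 had the same sign. A call in a single allele was rarely a difference between alleles in the direct test. Of 712 probe sets called in e1370 and not in m577, 28 (3.93%) were called in the interaction, and 657 of the 712 had the same sign in m577. Of 129 called in m577 and not in e1370, 2 were called in the interaction, and 106 had the same sign in e1370. The median SE of the interaction was 0.319, and at that SE an interaction had to reach about 1.61 on the log2 scale to be called, since the largest unadjusted p among the calls was 8.50e-05. Smaller differences between alleles were mostly not detectable with 5 arrays a genotype.

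Among *daf-16* responsive transcripts as a whole, most had the larger effect in e1370, which is given as a description with no test. These transcripts were chosen by the mean effect over both alleles, called for 1425 probe sets (6.32%). Of 818 probe sets raised by *daf-16*, 553 (67.6%) had the larger effect in e1370, with medians of 1.04 in e1370 and 0.71 in m577. Of 607 lowered probe sets, 469 (77.3%) had the larger fall in e1370, with medians of -1.21 and -0.82. The genotypes differed in spread, with a median SD over probe sets of 0.356 in e1370, 0.357 in e1370df50, 0.321 in m577 and 0.217 in m577df50, so that an equal-weight mean is not independent of the interaction and favours probe sets with a large e1370 effect. With each allele weighted by the inverse of its variance, a choice made after the data were seen, the mean effect was called for 1478 probe sets (6.55%). Of these, 522 of 864 raised (60.4%) and 419 of 614 lowered (68.2%) had the larger effect in e1370, and the median ratio of the m577 to the e1370 effect was 0.795. With equal weights that ratio was 0.721, and it stayed between 0.680 and 0.795 when any of the 20 arrays was left out. Such a range is not the error of the ratio, whose jackknife SE from the same 20 fits was 0.113. That SE was taken over all 20 arrays without regard to genotype. Over all 22548 probe sets the median interaction was -0.03 and 10146 interactions were above 0. Across all probe sets, which are not independent replicates, the 2 effects had a Pearson correlation of 0.558, and they share no array.

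**Figure D1:**
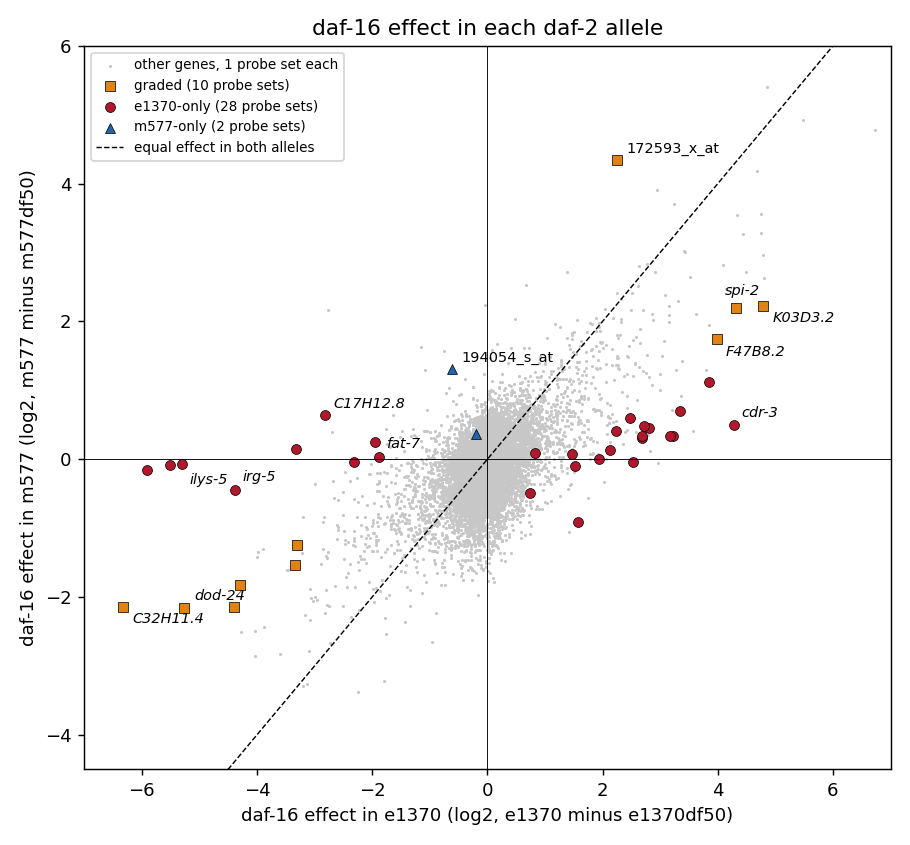
The *daf-16* effect in e1370 (horizontal axis, log2) against that in m577 (vertical axis, log2), with 1 grey point per gene, squares for the 10 graded, circles for the 28 e1370-only and triangles for the 2 m577-only probe sets. The graded squares lie between the horizontal axis and the dashed line of equal effect, except 172593_x_at above it, and most circles lie along the horizontal axis, where the m577 effect is near 0.

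Graded transcripts that *daf-16* lowered came from 6 genes, of which *dod-24*, *irg-8*, *drd-50* and *dod-23* are on the list of 66 infection response genes and *C32H11.4* and *C17H12.6* are not. *C32H11.4*, *dod-24*, *C17H12.6*, *irg-8*, *drd-50* and *dod-23* were lower with *daf-16* in both alleles, by 3.30 to 6.32 in e1370 and by 1.24 to 2.15 in m577. Their levels were high in both strains that lack *daf-16*, lower in m577 and lowest in e1370. The names dod and irg mark genes found downstream of *daf-16* and in the response to infection.

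*C32H11.4* had the largest graded interaction. Its 5 levels were 6.52, 6.47, 6.47, 5.54 and 6.11 in e1370 and 9.77, 11.36, 8.85, 11.30 and 11.02 in m577. Without *daf-16* they were 12.801, 12.598, 12.46, 13.03 and 11.84 in e1370df50 and 12.50, 12.93, 12.35, 12.55 and 12.67 in m577df50. All e1370 arrays read near or within the background range, the m577 arrays lay clear of both neighbours, and the strains without *daf-16* overlapped. The *daf-16* effect on *C32H11.4* was -6.32 ± 0.39 in e1370 (80.0-fold lower) and -2.14 ± 0.39 in m577 (4.41-fold lower), and the interaction was -4.18 ± 0.55 (SE, limma adjusted p = 0.00122). With an e1370 mean of 6.22, inside the background range, the size of its fall in e1370 is limited by background.

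*dod-24*, an infection response gene with a CUB-like domain, is lowered by *daf-16* in long-lived *daf-2* animals in other work. It read 8.57, 6.403, 6.73, 7.16 and 7.30 in e1370 and 10.30, 10.74, 9.01, 10.74 and 10.45 in m577. Without *daf-16* it read 12.51, 12.26, 12.42, 12.83 and 12.51 in e1370df50 and 12.19, 12.59, 12.10, 12.51 and 12.62 in m577df50. The 3 levels of response did not overlap, with replicate 3 of m577 the lowest of its group and replicate 1 of e1370 the highest of its own. *dod-24* fell by 5.27 ± 0.34 in e1370 and by 2.15 ± 0.34 in m577, with an interaction of -3.12 ± 0.49 (SE, limma adjusted p = 0.00636). *C32H11.4* and *dod-24* lie near each other on chromosome IV, with 6 protein-coding genes between them.

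*irg-8*, an infection response gene, read from 6.61 to 8.30 in e1370, from 9.62 to 10.82 in m577 and from 12.16 to 12.65 in m577df50. Its e1370df50 arrays read 12.26, 10.97, 12.23, 12.32 and 12.18, with replicate 2 apart from the others but still above every m577 array. The effects were -4.41 ± 0.30 in e1370 and -2.14 ± 0.30 in m577, and the interaction was -2.27 ± 0.42 (SE, limma adjusted p = 0.0318). *drd-50* fell from 12.13 ± 0.40 in e1370df50 to 8.83 ± 0.55 in e1370, and from 12.11 ± 0.21 in m577df50 to 10.87 ± 0.37 in m577 (SD, n = 5), with an interaction of -2.06 ± 0.35 (SE, limma adjusted p = 0.013). *dod-23* had the smallest interaction of these 6 genes, -1.80 ± 0.32 (SE, limma adjusted p = 0.023). It fell from 12.80 ± 0.23 to 9.46 ± 0.51 in e1370 and from 13.44 ± 0.08 to 11.90 ± 0.48 in m577 (SD, n = 5). Unlike the other 5, *dod-23* had no overlap between the strains without *daf-16*, where every m577df50 array was above every e1370df50 array. The e1370df50 minus m577df50 difference was -0.64 ± 0.23 for *dod-23* and larger in size, 1.09 ± 0.28 (SE), for *C17H12.6*, whose arrays overlapped. Neither was called by limma.

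*C17H12.6* and *C17H12.8* are neighbours on chromosome IV with no protein-coding gene between them, and they fell into different classes. *C17H12.6* was graded, with levels of 5.83, 5.71, 5.45, 5.57 and 5.66 in e1370 and 6.31, 7.62, 6.39, 7.87 and 6.93 in m577. Without *daf-16* its levels were 9.43, 10.50, 9.82, 10.04 and 9.91 in e1370df50 and 9.47, 9.06, 8.31, 8.79 and 8.63 in m577df50. It was in the background range on every e1370 array and intermediate in m577. The effects were -4.30 ± 0.28 in e1370 and -1.83 ± 0.28 in m577, with an interaction of -2.47 ± 0.40 (SE, limma adjusted p = 0.00804). *C17H12.8*, by contrast, did not pass the test in m577. Its probe set 184533_at read 7.42, 7.26, 8.06, 8.27 and 9.46 in e1370 against 11.14, 11.97, 11.18, 11.65 and 11.77 in m577. Without *daf-16* that probe set read 11.20, 10.73, 10.83, 11.31 and 10.52 in e1370df50 and 11.11, 10.74, 10.92, 10.69 and 11.05 in m577df50. The e1370 arrays were below all others, and the m577 arrays were above the m577df50 arrays. The e1370 effect was -2.82 ± 0.31, the m577 effect was 0.64 ± 0.31 (limma adjusted p = 0.391), and the interaction was -3.46 ± 0.44 (SE, limma adjusted p = 0.00091). The other *C17H12.8* probe set, 184534_s_at, had an interaction of -3.47 ± 0.51 (SE) and an m577 effect of 0.15 ± 0.36.

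Graded transcripts that *daf-16* raised were *K03D3.2*, *F47B8.2* and *spi-2*. *spi-2*, which encodes a serine protease inhibitor, read 11.72, 10.91, 11.70, 11.99 and 11.64 in e1370 and 8.79, 9.98, 9.41, 9.34 and 9.27 in m577. In the strains that lack *daf-16* it read 7.19, 7.13, 6.85, 7.61 and 7.58 in e1370df50 and 7.14, 7.36, 7.39, 7.11 and 6.78 in m577df50. The m577 arrays formed a separate middle group, and the strains without *daf-16* overlapped. The rise was 4.32 ± 0.22 in e1370 (20.0-fold) and 2.20 ± 0.22 in m577 (4.59-fold), with an interaction of 2.12 ± 0.31 (SE, limma adjusted p = 0.00414).

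*F47B8.2* had the smallest error of the graded genes. It read 11.22, 10.72, 11.34, 10.76 and 10.64 in e1370, 8.54, 8.83, 8.36, 8.99 and 8.79 in m577, 6.94, 7.40, 6.82, 6.68 and 6.93 in e1370df50 and 6.81, 7.01, 6.96, 7.17 and 6.85 in m577df50. No array of e1370 or m577 came near another group, and the means of the strains without *daf-16*, 6.95 and 6.96, differed by less than the spread within either. *F47B8.2* rose by 3.98 ± 0.16 in e1370 and 1.74 ± 0.16 in m577, and its interaction of 2.24 ± 0.23 (SE, limma adjusted p = 6.68e-05) kept its call in all 14 other settings and with any array left out. *K03D3.2* averaged 10.11 ± 0.81 in e1370 and 7.53 ± 0.59 in m577, against 5.32 ± 0.35 in e1370df50 and 5.31 ± 0.26 in m577df50 (SD, n = 5). Both strains without *daf-16* were in the background range for *K03D3.2*, and its interaction was 2.56 ± 0.47 (SE, limma adjusted p = 0.0257).

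**Figure D2:**
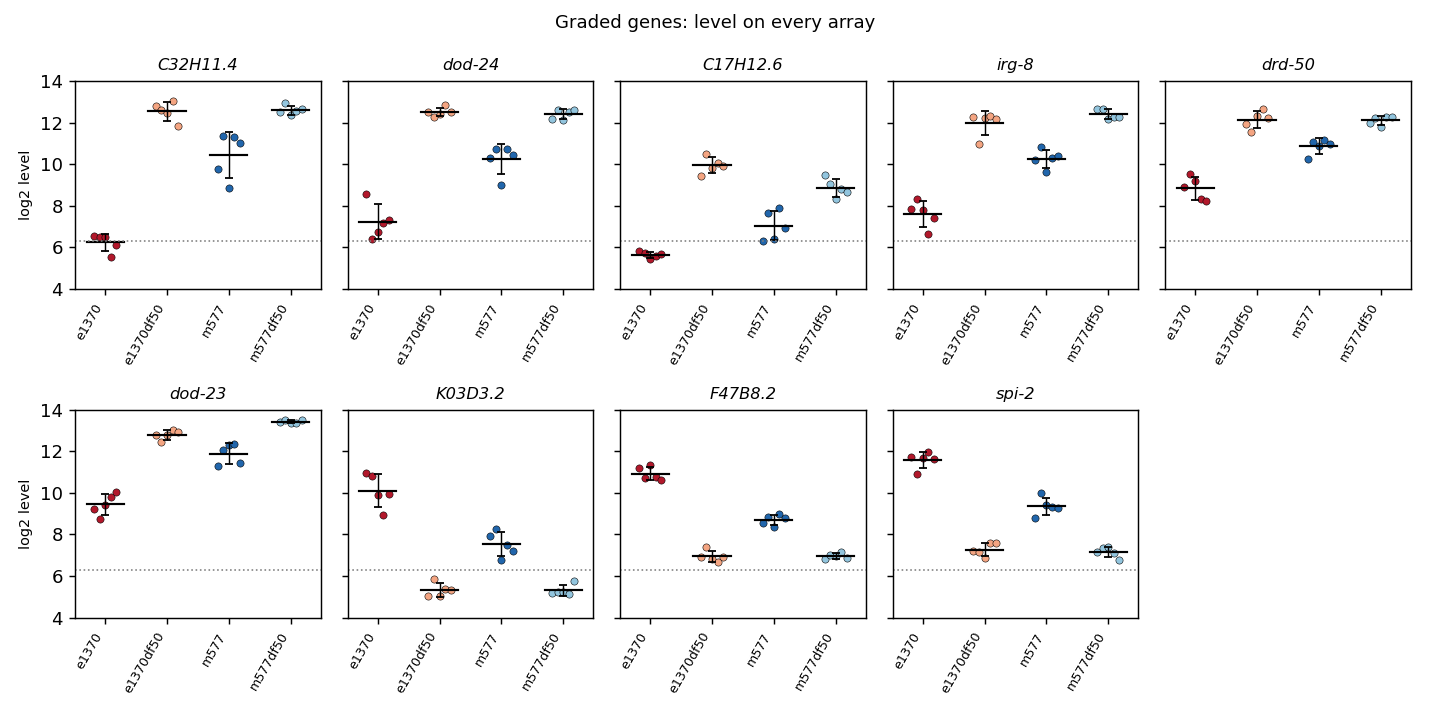
Log2 levels of the 9 graded genes on every array, by genotype, with 1 point per array, the line at the mean and bars of 1 SD (n = 5), and a dotted line at 6.29, the highest Bacillus control level. In each panel m577 lies between e1370 and the 2 strains without *daf-16*.

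In the 9 graded genes the m577 effect was between 33.9% (*C32H11.4*) and 50.9% (*spi-2*) of the e1370 effect, with a median of 43.7%. The 95% Fieller intervals of these shares ran from 20.7% at the lowest to 65.5% at the highest. The genes were chosen by calls that such shares enter, so the shares describe these 9 genes and are not set against the median of all responsive probe sets. The tenth graded probe set, 172593_x_at, is annotated to several genes and went the other way, with the larger rise in m577. It read 8.95, 8.69, 8.71, 8.33 and 9.92 in e1370 and 11.05, 11.32, 10.43, 11.55 and 11.77 in m577. The *daf-16* mutants gave 6.74, 6.01, 6.58, 7.20 and 6.81 in e1370df50 and 6.60, 6.61, 7.11, 7.33 and 6.76 in m577df50. Every m577 array was above every e1370 array, and the strains without *daf-16* overlapped. The rise was 2.25 ± 0.29 in e1370 and 4.34 ± 0.29 in m577, with an interaction of -2.09 ± 0.41 (SE, limma adjusted p = 0.0479), close to the threshold.

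Among e1370-only transcripts, 9 probe sets, 8 of them from 5 named genes, were lower with *daf-16* in e1370 and did not pass the test in m577. The gene with the largest interaction of all was *ilys-5*, an invertebrate-type lysozyme, an enzyme that breaks down bacterial cell walls. Its probe set 194255_x_at read 7.59, 7.57, 6.72, 5.96 and 6.54 in e1370 and 13.34, 13.04, 12.76, 12.94 and 12.91 in m577. In the *daf-16* mutants it read 12.83, 12, 12.32, 12.12 and 11.61 in e1370df50 and 12.36, 13.18, 13.32, 13.45 and 13.003 in m577df50. The e1370 arrays stood alone at the bottom, and m577 overlapped m577df50. The effect was -5.30 ± 0.29 in e1370 (39.4-fold lower) against -0.07 ± 0.29 in m577 (95% interval -0.68 to 0.55), with an interaction of -5.24 ± 0.41 (SE, limma adjusted p = 1.63e-06). The other 2 probe sets of *ilys-5* had interactions of -5.42 ± 0.40 and -5.76 ± 0.35 (SE). Probe sets ending in x_at can read related transcripts, and probe set 173051_s_at had its e1370 mean, 5.89, in the background range.

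*irg-5*, another infection response gene, read 9.03, 6.69, 8.44, 8.85 and 9.69 in e1370 and 12.14, 12.55, 12.19, 12.44 and 12.28 in m577. Without *daf-16* it read 12.90, 12.86, 12.90, 12.97 and 12.93 in e1370df50 and 12.95, 12.83, 12.51, 12.77 and 12.801 in m577df50. Levels in e1370 were low and spread over a wide range, and the highest m577 array was just above the lowest m577df50 array. *irg-5* fell by 4.37 ± 0.35 in e1370, differed by -0.45 ± 0.35 in m577 (limma adjusted p = 0.579), and had an interaction of -3.92 ± 0.49 (SE, limma adjusted p = 0.00091). *W04A4.2* fell from 9.72 ± 0.26 in e1370df50 to 7.40 ± 0.74 in e1370, while m577 and m577df50 averaged 9.37 ± 0.67 and 9.41 ± 0.20 (SD, n = 5). Its interaction of -2.28 ± 0.45 (SE, limma adjusted p = 0.0479) was near the threshold, as was that of the unnamed probe set 180669_s_at, -2.19 ± 0.43 (SE, limma adjusted p = 0.0479).

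*fat-7*, a delta-9 desaturase that makes oleic acid from stearic acid, differed from the other lowered genes of the e1370-only class in where the alleles parted. It read 7.20, 7.25, 6.89, 7.07 and 7.12 in e1370 and 7.53, 8.14, 7.52, 8.15 and 7.42 in m577. Without *daf-16* it read 8.84, 8.52, 9.73, 8.97 and 8.87 in e1370df50 and 8.25, 7.43, 7.93, 7.55 and 7.46 in m577df50. All e1370df50 arrays were above all arrays of the other genotypes, all e1370 arrays were below them, and m577 overlapped m577df50. The effect was -1.88 ± 0.21 in e1370 and 0.03 ± 0.21 in m577 (95% interval -0.42 to 0.48), with an interaction of -1.91 ± 0.30 (SE, limma adjusted p = 0.00671). Without *daf-16*, *fat-7* was higher in e1370df50 than in m577df50 by 1.26 ± 0.21, and with *daf-16* the e1370 minus m577 difference was -0.65 ± 0.21, and neither difference passed the test alone (limma adjusted p = 0.156 and 0.137). *fat-7* is listed among genes that *daf-16* raises in *daf-2* animals in other work, and here it was lower with *daf-16* in e1370.

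Raised e1370-only transcripts covered 19 probe sets of 18 genes, and their m577 effects did not pass the test. For 11 of the 19 probe sets the m577, m577df50 and e1370df50 means were all in the background range, where the size of an m577 effect is limited by background. The clearest was *cdr-3*, of the cadmium-responsive gene family. It read 8.84, 10.07, 9.51, 8.69 and 7.63 in e1370 and 4.99, 5.21, 5.35, 5 and 5.03 in m577. Without *daf-16* it read 4.62, 4.72, 4.61, 4.69 and 4.68 in e1370df50 and 4.65, 4.66, 4.60, 4.51 and 4.65 in m577df50. The e1370 arrays were far above the rest, and the m577 arrays, although in the background range, all lay above the m577df50 arrays. *cdr-3* rose by 4.29 ± 0.29 in e1370 (19.5-fold) and differed by 0.50 ± 0.29 in m577 (limma adjusted p = 0.462), with an interaction of 3.78 ± 0.40 (SE, limma adjusted p = 0.000113). *C54D10.10*, on chromosome V with 9 protein-coding genes between it and *cdr-3*, was also e1370-only, with an interaction of 1.83 ± 0.29 (SE).

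Of 45 glutathione S-transferases, which attach glutathione to reactive compounds, *gst-3*, *gst-15* and *gst-41* were among the raised e1370-only genes. *gst-3* read 9.64, 10.32, 9.03, 9.28 and 8.51 in e1370 and 6.83, 6.61, 7.01, 6.29 and 6.21 in m577, against 5.88, 6.73, 5.65, 6 and 5.76 in e1370df50 and 5.68, 5.93, 5.78, 6.03 and 6.05 in m577df50. In m577 all *gst-3* arrays were above m577df50, by a small margin. *gst-3* rose by 3.35 ± 0.27 in e1370 and differed by 0.70 ± 0.27 in m577 (limma adjusted p = 0.257), with an interaction of 2.65 ± 0.38 (SE, limma adjusted p = 0.00364). *gst-15* averaged 8.89 ± 0.61 in e1370 and from 6.42 to 7.12 in the other genotypes, and its m577 effect was 0.59 ± 0.20 (limma adjusted p = 0.171). For *gst-41* the m577 effect was 0.00 ± 0.27 against 1.94 ± 0.27 in e1370, and its interaction of 1.94 ± 0.38 (SE, limma adjusted p = 0.0418) lost its call in 17 of the 20 fits that left out 1 array and in 6 of 14 other settings. *cyp-13B1*, a cytochrome P450, had 2 probe sets with interactions of 2.57 ± 0.39 and 2.38 ± 0.37 (SE, limma adjusted p = 0.00471 and 0.00636). Its probe set 172790_x_at averaged 8.84 ± 0.64 in e1370, 6.15 ± 0.16 in e1370df50, 6.93 ± 0.43 in m577 and 6.62 ± 0.35 in m577df50 (SD, n = 5). *djr-1.2*, a DJ-1 family protein with glyoxalase activity, which clears reactive aldehydes, averaged 8.33 ± 0.59 in e1370 and between 5.63 and 5.97 in the other genotypes. The *djr-1.2* interaction was 2.35 ± 0.30 (SE, limma adjusted p = 0.00119).

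*dod-3*, raised by *daf-16* in long-lived animals in other work, also parted between the strains that lack *daf-16*. It read 12.47, 12.29, 11.63, 11.10 and 10.89 in e1370 and 11.21, 11.01, 11.21, 10.55 and 10.64 in m577. Its values without *daf-16* were 7.41, 9.27, 7.61, 7.48 and 7.36 in e1370df50 and 9.60, 10.28, 9.77, 10.04 and 9.35 in m577df50. With *daf-16* the alleles overlapped, while without it every e1370df50 array was below every m577df50 array. The allele difference without *daf-16* was not called (limma adjusted p = 0.205). The rise was 3.85 ± 0.36 in e1370 and 1.12 ± 0.36 in m577 (95% interval 0.37 to 1.86, limma adjusted p = 0.146), with an interaction of 2.74 ± 0.50 (SE, limma adjusted p = 0.0282). That call was lost in 11 of the 20 fits that left out 1 array and in 5 of 14 other settings, among them cyclic loess, the 3' minus 5' covariate and leaving out the 3 arrays with the lowest sperm levels. The m577 share was 29.0% of the e1370 effect (95% Fieller interval 9.49% to 50.7%), the highest share of the e1370-only genes. *F53A9.1* had effects of opposite sign in the 2 alleles. It averaged 10.79 ± 1.02 in e1370 and 9.22 ± 0.31 in e1370df50, but 9.62 ± 0.29 in m577 and 10.53 ± 0.34 in m577df50 (SD, n = 5). Its effects were 1.58 ± 0.35 in e1370 and -0.91 ± 0.35 in m577, the latter not called (limma adjusted p = 0.251). The interaction of *F53A9.1*, 2.49 ± 0.49 (SE, limma adjusted p = 0.0479), lost its call in 17 of the 20 fits and in 6 of the 14 settings. *R12E2.13* behaved likewise, with effects of 0.73 ± 0.15 and -0.49 ± 0.15 (limma adjusted p = 0.139 in m577).

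*far-7*, a fatty acid and retinol binding protein, averaged 9.06 ± 0.92 in e1370, 5.90 ± 0.12 in e1370df50, 7.11 ± 0.25 in m577 and 6.77 ± 0.78 in m577df50 (SD, n = 5), with an interaction of 2.82 ± 0.53 (SE, limma adjusted p = 0.0318). Its call was lost in 13 of the 20 fits and in 6 of the 14 settings. *F40G12.5* averaged 7.85 ± 0.80 in e1370 and between 4.63 and 5.00 elsewhere (interaction 2.88 ± 0.39, SE). *piit-1* averaged 9.43 ± 0.59 in e1370 and between 6.60 and 7.06 elsewhere (interaction 2.35 ± 0.38, SE). *srg-32*, of a chemoreceptor-like family of membrane proteins, averaged 8.31 ± 0.76 in e1370 and between 5.46 and 5.94 elsewhere (interaction 2.25 ± 0.37, SE). For these 3 genes no e1370 array overlapped any other genotype. The remaining raised genes had smaller interactions. These were *slc-36.5*, of an amino acid transporter family (1.99 ± 0.37), *nspe-4*, of a nematode-specific peptide family (1.62 ± 0.25), *T23F2.4* (1.39 ± 0.25), *R12E2.13* (1.22 ± 0.22) and the nuclear hormone receptor *nhr-208* (0.74 ± 0.14). *slc-36.5*, *C54D10.10*, *nspe-4*, *T23F2.4* and *R12E2.13* fall outside the naming rule and are named so that every member is accounted for.

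**Figure D3:**
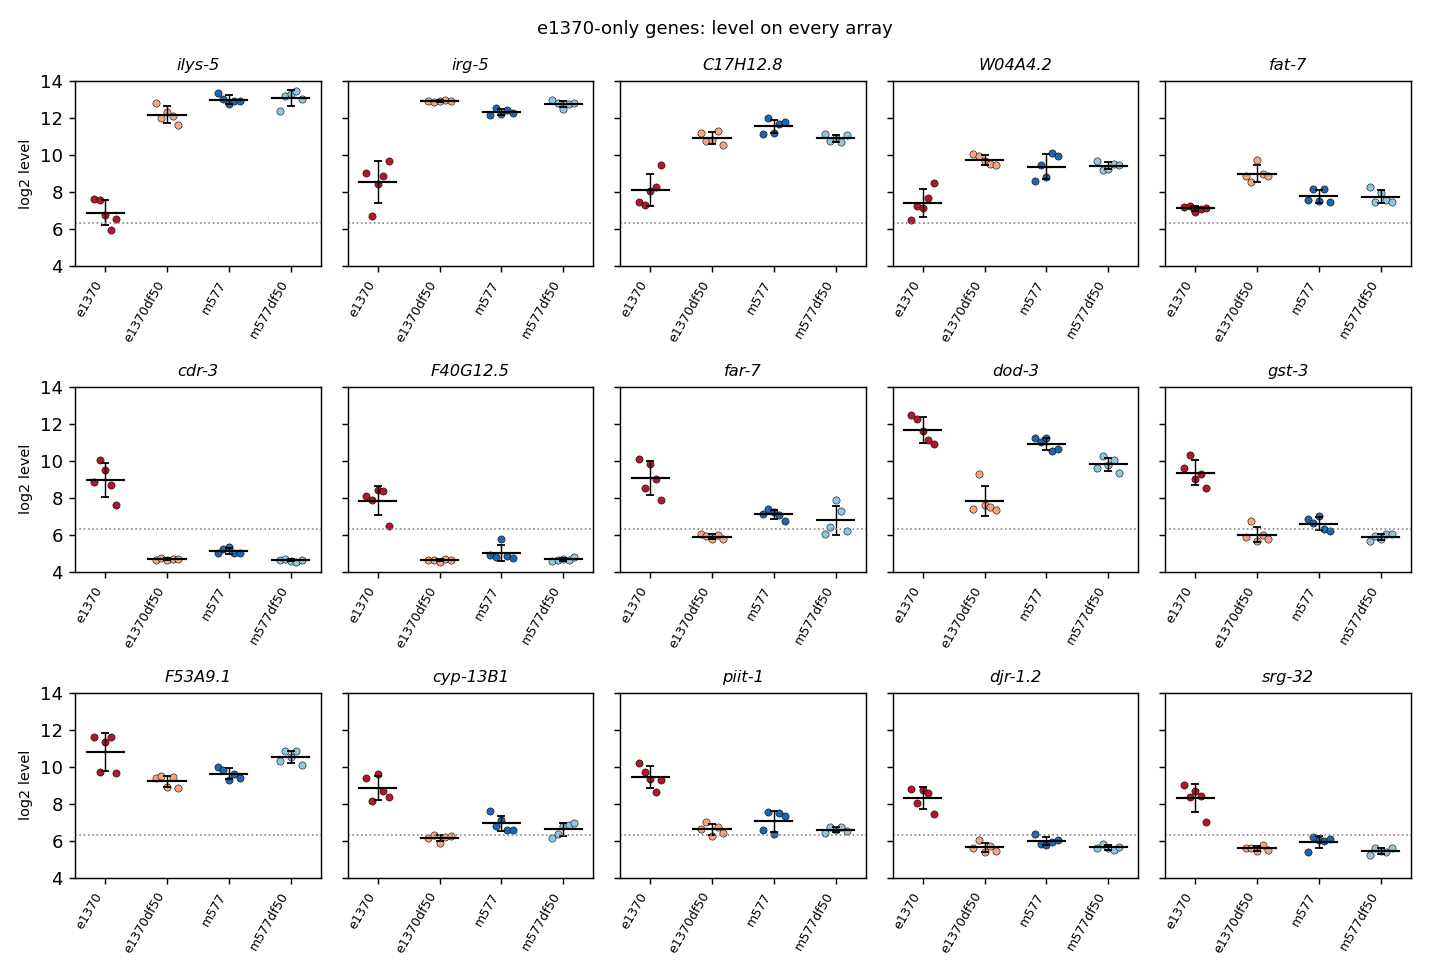
Log2 levels of 15 e1370-only genes on every array, by genotype, with 1 point per array, the line at the mean and bars of 1 SD (n = 5), and a dotted line at 6.29, the highest Bacillus control level. In the upper row e1370 lies below the other genotypes, in the other rows it lies above most of them, and in *fat-7*, *dod-3* and *F53A9.1* the strains without *daf-16* also differ.

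A missed call in m577 is not the absence of an effect. In 18 of the 28 e1370-only probe sets the 95% interval of the m577 effect lay within 1 log2 unit of 0. The m577 effect had an unadjusted p under 0.05 in 5 of the 28, of which *dod-3*, *gst-3* and *gst-15* had the sign of the e1370 effect, and *F53A9.1* and *R12E2.13* the opposite sign.

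The m577-only class held probe set 194054_s_at, annotated to several genes, and *K09F6.7*. Probe set 194054_s_at read 9.62, 10.44, 9.07, 10.06 and 10 in m577 and 8.38, 8.77, 8.56, 8.50 and 8.44 in m577df50. In e1370 it read 8.03, 8.38, 7.79, 7.58 and 8.38, and in e1370df50 it read 8.88, 7.88, 8.62, 9.37 and 8.50. The m577 arrays were above all m577df50 arrays, and the e1370 pair overlapped. The effect was 1.31 ± 0.26 in m577 and -0.62 ± 0.26 in e1370, with an interaction of -1.93 ± 0.37 (SE, limma adjusted p = 0.0346). *K09F6.7* had all 4 genotype means, from 5.53 to 5.91, in the background range, and its m577 effect of 0.37 ± 0.08 is a small difference at that level (interaction -0.57 ± 0.11, SE, limma adjusted p = 0.0458). Its e1370 effect was -0.20 ± 0.08, of the opposite sign. Neither probe set stayed in the class when an unadjusted limma p of 0.05 or more was asked of the e1370 effect. The class therefore does not show that an e1370 effect was absent.

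The interaction can also be read as the allele difference with *daf-16* minus that without it. The e1370 minus m577 difference was called for 297 probe sets with *daf-16* (1.32%) and for 1 without *daf-16* (0.00443%). These comparisons share their arrays with the interaction, so the values of the members are given side by side. For *ilys-5* (194255_x_at) the difference was -6.12 ± 0.29 with *daf-16* and -0.89 ± 0.29 without it. For *C32H11.4* it was -4.23 ± 0.39 with and -0.05 ± 0.39 without, for *cdr-3* 3.83 ± 0.29 and 0.05 ± 0.29, and for *spi-2* 2.23 ± 0.22 and 0.12 ± 0.22. *dod-3* lay at the other end, with 0.75 ± 0.36 with *daf-16* and -1.98 ± 0.36 without it. *F53A9.1* had 1.17 ± 0.35 and -1.32 ± 0.35, and *C17H12.6* had -1.39 ± 0.28 and 1.09 ± 0.28. Over the 40 members the difference without *daf-16* ran from -1.98 (*dod-3*) to 1.26 (*fat-7*), and none of these was called by limma. The probe set called without *daf-16* was 188587_s_at, annotated to 2 genes, at 9.43 ± 0.83 in e1370df50 and 6.92 ± 0.13 in m577df50 (SD, n = 5).

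Other transcripts depended on *daf-16* to a like extent in both alleles. Of 236 genes called in both alleles, 76 (46 raised and 30 lowered) were not called in the interaction and had a 95% interval of it within 1 log2 unit of 0. *glam-5* rose by 2.32 in e1370 and 2.33 in m577. *far-3*, a relative of *far-7*, averaged 13.13 ± 0.19 and 12.93 ± 0.19 in e1370 and m577 and 11.09 ± 0.74 and 10.75 ± 0.39 without *daf-16* (SD, n = 5), and its interaction was -0.13 (95% interval -0.92 to 0.67), against 2.82 for *far-7*. The pantothenate kinase *pnk-1*, which starts coenzyme A synthesis, rose by 1.94 and 1.92. *PDB1.1*, *slc-9B.1* and the cytochrome P450 *cyp-34A8* rose by 1.87 to 1.98 in either allele. Among lowered genes, *oac-20* fell by 3.20 in e1370 and 3.30 in m577, and the fibulin *fbl-1*, an extracellular matrix protein, fell by 2.23 and 2.19. *K10D11.5*, *oac-59*, *F19C7.2* and *F11D5.7* fell by 1.37 to 2.07. These genes were picked for a narrow interval around 0, so their evenness is a description. With *daf-16*, *oac-20* (5.17 and 5.61) and *F11D5.7* (4.96 and 5.30) averaged in the background range in e1370 and m577. The same held for *fbl-1* in e1370 (6.04), and for *glam-5* in e1370df50 (5.15) and m577df50 (5.09). For these genes background limits the size of the effects, so a difference between alleles could go unseen.

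**Figure D4:**
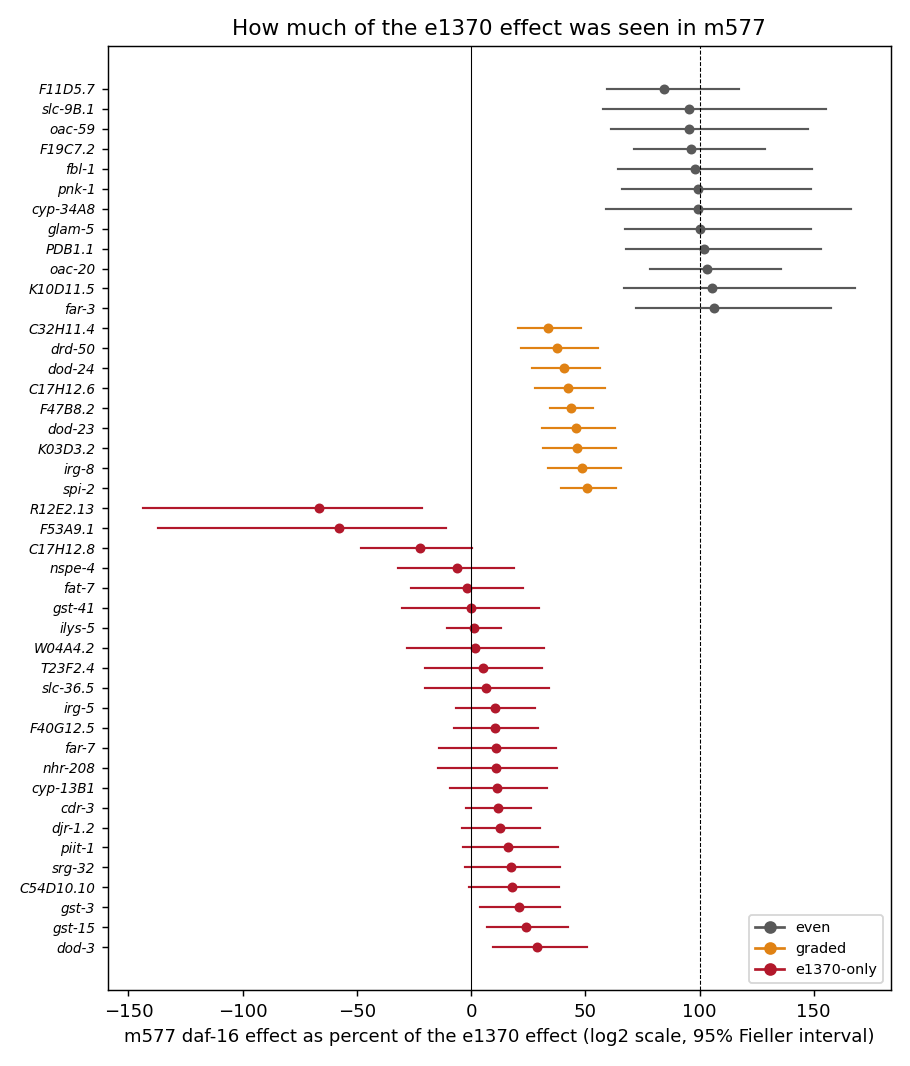
The m577 *daf-16* effect as a percent of the e1370 effect (horizontal axis, log2 effects), with 95% Fieller intervals, for 12 even genes, the 9 graded genes and the 23 e1370-only genes. Even genes centre near 100%, graded genes lie between 33.9% and 50.9%, and e1370-only genes run from -66.6% (*R12E2.13*) to 29.0% (*dod-3*) with a median of 10.7%, where 3 intervals, those of *dod-3*, *gst-15* and *gst-3*, lie above 0 and 2 lie below.

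Gene lists gave the pathway background, each gene read by its brightest probe set. Over 17118 genes, 21 interactions were higher in e1370 and 12 lower, with a median of -0.02, and 10 of 43 lists held a call. Of 66 infection response genes, 5 had a lower interaction, *irg-5*, *dod-24*, *irg-8*, *drd-50* and *dod-23*, and none a higher one, while the list's median of -0.07 was close to that of all genes. Of 16 genes that *daf-16* lowers in other work, *dod-24* and *dod-23* were called, and the list's median interaction was -0.68. Of 22 genes that *daf-16* raises in other work, *dod-3* was called higher and *fat-7* lower, with a median of 0.16. Single members were called in the lists of 12 ferritin and metal handling genes (*cdr-3*), 16 lysozymes (*ilys-5*), 74 cytochrome P450 genes (*cyp-13B1*), 42 lipase and fatty acid binding genes (*far-7*), 15 desaturases and elongases (*fat-7*) and 259 nuclear hormone receptors (*nhr-208*). Of 45 glutathione S-transferases, 3 were called higher, and the list's median was 0.04. Genes fell into several lists, and all were chosen with earlier results of these data known.

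The other 33 lists held no call by limma, with medians from -0.71 (5 yolk protein genes) to 1.28 (39 sperm genes). Of their members, the 13 small heat shock genes had 4 and the 83 neuropeptide genes 14 with a higher interaction at an unadjusted p under 0.05, and 220 C-type lectins had 2 higher and 22 lower, against 473 higher and 452 lower among all 17118 genes. *hsp-16.21*, a small heat shock protein, had an interaction of 2.70 ± 0.61 (SE, limma adjusted p = 0.138), and *hsp-12.6* one of 2.56 ± 0.77 (SE, limma adjusted p = 0.418). *sod-3*, the mitochondrial superoxide dismutase often used to read *daf-16* activity, had effects of 4.75 in e1370 and 3.56 in m577, and an interaction of 1.19 ± 0.36 (SE, limma adjusted p = 0.407). In 22 insulin/IGF-1 pathway genes no interaction reached even an unadjusted p under 0.05. Nor did any of the sperm genes, although their list had the highest median. Muscle, pharynx, neuron and hypodermis marker lists held 3 such genes together, all in neurons.

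No interaction of the mutated genes themselves passed the test. *daf-16* has 4 probe sets, whose interactions were 0.42 ± 0.38 (175678_at), 0.55 ± 0.53 (175823_s_at), -0.33 ± 0.34 (181992_s_at) and 0.03 ± 0.50 (188176_s_at) (SE), none called by limma. Probe set 175678_at averaged 6.97 ± 0.50 in e1370, 5.99 ± 0.62 in e1370df50, 6.98 ± 0.18 in m577 and 6.43 ± 0.31 in m577df50 (SD, n = 5). In the same order, the brightest, 175823_s_at, averaged 8.00 ± 0.52, 7.65 ± 0.49, 7.75 ± 0.69 and 7.96 ± 0.76. Probe set 188176_s_at averaged 7.83 ± 0.55, 7.43 ± 0.15, 7.78 ± 0.92 and 7.42 ± 0.46. For 181992_s_at, in the background range, the means were 5.74 ± 0.34, 5.21 ± 0.47, 5.99 ± 0.36 and 5.14 ± 0.40. No source used here says whether these probe sets lie inside the deleted stretch. Their levels therefore do not check the genotype. The 4 *daf-2* probe sets read between 4.75 and 5.48 in their genotype means, in the background range, with interactions from -0.21 to 0.10. *glp-4* had effects of -0.98 in both alleles and an interaction of 0.00 ± 0.54 (SE).

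Of the 33 member genes, 14 (42.4%) lie on chromosome V, which holds 25.2% of the genes measured, 7 on IV, 6 on II, 4 on X, 2 on I and none on III. Just inside the threshold stood 172593_x_at and *F53A9.1* (adjusted p = 0.0479), and just outside it *F26F12.3* (0.0508) and *daf-36* (0.0548), an oxygenase of dauer hormone synthesis whose effect was -1.89 in e1370 and -0.32 in m577. At an adjusted p under 0.10 the interaction was called for 47 probe sets, and 1247 had an unadjusted p under 0.05.

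How many interactions were called depended on single arrays. The count ran from 24 to 71 when any array was left out. It rose above 1.5 times without replicate 5 of e1370 (71) or replicate 2 of e1370df50 (67). It fell below without replicate 4 (25) or 5 (26) of m577, replicate 3 or 4 of e1370df50 (25 each), and replicate 2 (24), 3 (24) or 4 (26) of m577df50. All 40 kept their sign in each of these 20 fits and in 14 other settings that included them. They were chosen on these same arrays by a small p, so a kept sign was nearly fixed in advance. In all 20 fits, 24 of the 40 were called. The other 16 lost the call in 4 (*T23F2.4*) to 18 (*K09F6.7*) of the 20 fits, among them *irg-8* (12), *K03D3.2* (10), *dod-23* (9), *W04A4.2* (17) and 172593_x_at (17). With the 3' minus 5' difference as a covariate, 16 of the 40 were still called, and these were the probe sets of *ilys-5*, *irg-5*, *cdr-3*, *C17H12.8*, *F40G12.5*, *gst-3*, *djr-1.2*, *srg-32*, *fat-7*, *C32H11.4*, *dod-24*, *F47B8.2* and *spi-2*. With cyclic loess in place of the deposited scaling the count was 42, but the split turned from 22 higher and 18 lower to 17 higher and 25 lower. Without the 3 arrays with the lowest sperm levels, 27 of the 40 were still called.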

How the data were processed

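RNA of whole adults was measured on 20 Affymetrix whole-genome arrays, 5 per genotype, with groups taken from the labels. Per the labels, images were converted in Microarray Suite 5.0 and the authors ran the Robust Multi-chip Average (RMA) on the 20 arrays together with version 1.4.14 of the Affymetrix package of R. No label states the scale of the deposited values, and their range is that of log2 intensities. RMA as usually run gives arrays like distributions, so a change in total RNA would not be seen. Scanner images were not analysed here.

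Of 22625 probe sets, 77 Affymetrix controls were left out. The array annotation gave 20766 of the 22548 others 1 symbol, 887 several and 895 none, and 20701 symbols were matched to RefSeq genes of assembly WBcel235, used for names, chromosome and gene order alone. No coordinates are printed, because no source used here names the build behind the array. The brightest probe set stood for each of 17118 genes.

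A linear model with 1 mean per genotype and no covariate was fitted in R 4.3.3 (limma 3.58.1, by lmFit, contrasts.fit and eBayes) and tested 2-sided, with Benjamini-Hochberg adjustment over all probe sets in each of 6 comparisons. Adjusted p-values are limma's. Ratios of effects have Fieller intervals from the moderated variance. The fit was tested on simulated arrays with known interactions. Figures were drawn with matplotlib 3.10.9. Named genes were those with the largest interaction, up to 8 each way in the graded and m577-only classes and 10 each way in the e1370-only class, the 6 raised and 6 lowered even genes with the largest effect, and up to 4 called, or else 2, per list. The members and the 43 gene lists were chosen with earlier results of these data known. Other settings were centring, cyclic loess, leaving out dim probe sets, a trended and robust fit, array weights, testing changes beyond 1.2-fold, keeping the brightest probe set of each gene, blocks for the replicate numbers, germ line gene means or the 3' minus 5' difference as covariates, and leaving out arrays. After the data were seen, 3 were added: leaving out the 3 arrays with the lowest sperm levels, a separate spread for each genotype, and a mean effect weighted by each allele's spread. Replicate numbers did not pair arrays. For the title number, the correlation of deviations over 30 same-numbered pairs had a median of 0.083 (range -0.54 to 0.82). By that number 5 of 20 arrays correlated best with their own number. For the alternative-name number, 20 pairs had a median of -0.007 (range -0.60 to 0.76), and 4 arrays correlated best with their own number.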

Additional observations from a re-analysis of the deposited data

Results flagged for a closer look

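The *daf-16* effect differed between alleles, by limma's test of the difference itself, in 40 probe sets. Interactions below 0 in the e1370-only class were -5.76 for *ilys-5* (173051_s_at), -5.42 for *ilys-5* (172400_x_at), -5.24 for *ilys-5* (194255_x_at), -3.92 for *irg-5*, -3.47 for *C17H12.8* (184534_s_at), -3.46 for *C17H12.8* (184533_at), -2.28 for *W04A4.2*, -2.19 for 180669_s_at and -1.91 for *fat-7*. Those above 0 were 0.74 for *nhr-208*, 1.22 for *R12E2.13*, 1.39 for *T23F2.4*, 1.62 for *nspe-4*, 1.83 for *C54D10.10*, 1.87 for *gst-15*, 1.94 for *gst-41*, 1.99 for *slc-36.5*, 2.25 for *srg-32* and 2.35 for *djr-1.2*. The others of that class were 2.35 for *piit-1*, 2.38 for *cyp-13B1* (172790_x_at), 2.49 for *F53A9.1*, 2.57 for *cyp-13B1* (185599_s_at), 2.65 for *gst-3*, 2.74 for *dod-3*, 2.82 for *far-7*, 2.88 for *F40G12.5* and 3.78 for *cdr-3*. In the graded class they were -4.18 for *C32H11.4*, -3.12 for *dod-24*, -2.47 for *C17H12.6*, -2.27 for *irg-8*, -2.09 for 172593_x_at, -2.06 for *drd-50* and -1.80 for *dod-23*, and 2.12 for *spi-2*, 2.24 for *F47B8.2* and 2.56 for *K03D3.2*. In the m577-only class they were -1.93 for 194054_s_at and -0.57 for *K09F6.7*.

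Single arrays stood apart from the other 4 of their genotype in 17 of 204 sets of 5 values checked (8.33%), by the gap to the nearest array against the whole range, where chance gives about 1 in 20. Replicate 2 of e1370df50 read high for *dod-3* (9.27) and low for *irg-8* (10.97) and *pnk-1* (9.18). Replicate 5 of e1370 read low for *nspe-4* (6.12) and *F40G12.5* (6.47). Replicate 3 of m577 read low for *dod-24* (9.01) and the sperm gene mean (7.78), and high for *F40G12.5* (5.74). Replicate 2 of m577 read high for *nspe-4* (5.82), and replicate 1 of m577 read low for *srg-32* (5.37) and *glp-4* (6.08). Replicate 5 of m577df50 read high for *K03D3.2* (5.76) and low for *slc-36.5* (5.74) and *glp-4* (7.07). Replicate 2 of e1370 read low for *daf-16* probe set 175823_s_at (7.09). The 3' minus 5' difference was low on replicate 4 of e1370df50 (1.29) and high on replicate 1 of m577df50 (2.32).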

How the results depend on the processing

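The median ratio of the m577 to the e1370 effect ran from 0.673 (against a 1.2-fold change) to 0.806 (germ line covariates) over the 15 other settings. The 40 interactions kept their sign in every setting that included them, which was nearly fixed in advance because they were chosen on the same arrays. The 40 interaction calls became 1113 with array quality weights, 136 with germ line gene means as covariates, 16 with the 3' minus 5' covariate, 24 against a 1.2-fold change and 6 with a replicate block for the alternative sample name. A replicate block for the title number gave 40, with 33 of the 40 members among them. With array weights the calls were 6645 in m577, 3390 over both alleles, 2611 and 99 between alleles with and without *daf-16*, 317 e1370-only, 153 graded, 536 m577-only and 49 of opposite sign. Against a 1.2-fold change they were 616 in e1370, 180 in m577, 649 over both, 91 and 0 between alleles, 5 graded and 0 m577-only. The alternative-name replicate block gave 105 in m577, 699 over both, 30 and 0 between alleles, 5 e1370-only, 1 graded and 0 m577-only. Germ line covariates gave 1534 and 2 between alleles, 97 e1370-only, 17 m577-only and 3 opposite. The 3' minus 5' covariate gave 58 in m577, 643 over both, 0 between alleles without *daf-16*, 14 e1370-only, 2 graded and 0 m577-only. Without the least alike array of each genotype there were 672 in m577, 775 and 3 between alleles, 1 m577-only and 2 opposite. A separate spread per genotype gave 744 in m577, 1 m577-only and 1 opposite, and leaving out the 3 arrays low in sperm genes gave 1 opposite. Between alleles without *daf-16*, cyclic loess and 1 probe set per gene gave 0 and the title-number replicate block 3. The m577-only count was 1 with centring, without dim probe sets, with 1 probe set per gene and with the title-number block, and 0 with the trended fit or when an unadjusted p of 0.05 or more was asked of the other allele. Leaving out single arrays gave 24 to 71 interactions, 18 to 57 e1370-only, 6 to 16 graded, 0 to 4 m577-only and 0 to 1 opposite calls, 257 to 527 calls in m577, and 121 to 695 and 0 to 5 between alleles. The cause of these shifts was not tested. Signal over background limits the 19 members with a genotype mean of 6.29 or less, and 5 arrays a genotype limit what interaction could be called.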
